A study of Arabidopsis thaliana with 12 samples.

Results

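Polyadenylated RNA was sequenced from green-white rosette leaves of melinoe and from rosette leaves of wild-type Col-0. The mutant melinoe of Arabidopsis thaliana carries a change in FMN/FHY (AT4G21470) made with ethyl methanesulfonate. Each of these groups held 3 libraries, so the comparison rests on 6 of the 12 libraries of the series. The other 6 came from melinoe leaves labelled green and white, and they enter here where the green-white leaves were set beside them. Seeds of all groups had 48 h of cold, and the plants spent 2 weeks on a medium that held 1% sucrose before they were moved to soil at 22 °C under 16 h of light at 75 µmol m−2 s−1 and 8 h of darkness. The labels call these leaves green-white, and the extraction protocol lists green, pale green and chlorotic stages without tying them to samples. Leaf age and time of harvest are not given, the mutant is represented by 1 allele, and the labels call the libraries biological replicates without saying whether each came from 1 plant or a pool. The p-values therefore measure the spread between these libraries, which may be technical.

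Every gene of the deposited tables was a member. Of 25169 genes with a count, 19424 passed a filter on low counts and were tested with edgeR's quasi-likelihood test. A gene was called, and is said to have risen or fallen, at a Benjamini-Hochberg adjusted p under 0.05. Library totals ran from 25795702 to 26760055 estimated counts, and levels are given in CPM, counts scaled to a common library size with edgeR's TMM factors, with SD over 3 libraries. Log2 fold changes are green-white over wild type, with the SE of the fit, unless another pair is named. The call fell on 14158 genes (72.9%): 6624 rose (34.1%) and 7534 fell (38.8%). Only 3128 (16.1%) were called and at least 2-fold apart, 1619 higher (8.34%) and 1509 lower (7.77%). Counts within the gene lists are to be read beside these shares of all genes. The replicate libraries lay close together, with a common biological coefficient of variation of 0.0272, so small changes passed the test and sizes are given beside the calls. Over all genes tested the median log2 fold change was −0.035, and the middle 90% of genes lay between −1.21 and 1.49. The TMM factors were 0.903 to 0.910 in wild type and near 1.08 in green-white leaves. With library totals alone in their place, the median over all genes shifted by 0.251 and 69.9% of called genes were higher, against 46.8% with TMM. Changes of this size or smaller therefore depend on the scaling, and the directions given here are those with TMM.

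FMN/FHY is the bifunctional enzyme that phosphorylates riboflavin to the cofactor FMN and can hydrolyse FMN back, and flavin cofactors serve the respiratory chain, photorespiration, amino acid breakdown and blue-light receptors. Leaf tissue that makes little chlorophyll fixes less carbon and depends on sugar imported from green tissue. RNA came from leaves and not from separated cells, so fewer cells of a type and less RNA per cell cannot be told apart in any value given here. The transcript of FMN/FHY itself, whose gene overlaps a neighbour, stood at 22.0, 24.5 and 23.3 CPM in the wild-type libraries and 23.6, 23.5 and 23.7 CPM in the green-white libraries. These libraries overlapped, and the log2 difference was 0.020 ± 0.051 (adjusted p = 0.73). A base change need not alter the transcript level, so this value does not check the genotype labels.

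The 10 largest increases included genes with few counts in wild-type leaves. DIN11 (AT3G49620), a dark-inducible gene of the 2-oxoglutarate-dependent dioxygenase family, measured 2.26, 1.61 and 1.61 CPM in the wild-type libraries and 151, 154 and 151 CPM in the green-white libraries. The groups lay far apart, with a log2 fold change of 6.38 ± 0.069 (adjusted p = 5.9e-35), and the green-white level was also above the 83.1 ± 1.53 CPM in green and 13.8 ± 0.987 CPM in white leaves. BGLU30, a β-glucosidase gene also known as DIN2, rose by 6.03 ± 0.089, from 0.826 to 54.1 CPM. ELI3-2 (AT4G37990), a defence-related alcohol dehydrogenase gene, stood at 3.74, 3.15 and 3.72 CPM in the wild-type libraries and 115, 108 and 111 CPM in the green-white libraries, a log2 fold change of 4.97 ± 0.061 (adjusted p = 1.7e-33). DOX1, which encodes an α-dioxygenase that oxidises fatty acids, rose by 4.65, and NIT2, a nitrilase gene, by 4.23, from 24.0 to 451 CPM. NIT2 has near-identical neighbours, and fractions in its counts show that reads were divided among them, so its level is uncertain. The same holds for DTX1, a toxin efflux carrier gene (log2 fold change 4.21).

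At the other end stood genes of defence stores and growing leaves. PYK10, the β-glucosidase that fills the endoplasmic reticulum bodies of Brassicaceae, fell from 57.9 to 2.15 CPM, a log2 fold change of −4.75 ± 0.077. The annotated span of PYK10 overlaps another gene. DR4 (AT1G73330), a drought-repressed protease inhibitor gene, measured 29.1, 29.1 and 27.0 CPM in the wild-type libraries and 3.10, 3.18 and 3.28 CPM in the green-white libraries, with no overlap and a log2 fold change of −3.15 ± 0.077 (adjusted p = 4.7e-26). THI2.2, a thionin gene, fell by 3.06 and MLP43, of the major latex protein family, fell by 2.60 on the log2 scale. EXPA11 (AT1G20190), XTH31 and FSD1 (AT4G25100) were also among the 10 lowest and are described with their groups.

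In absolute transcript share, per length, the gains and losses fell on other genes. These levels are the authors' mean TPM per group, a scale corrected for transcript length, and carry no SD. BCB, which encodes a blue copper-binding protein of the cell surface, went from 309 to 2157 TPM. SAG21, a small mitochondrial protein of the late-embryogenesis class, went from 355 to 1278 TPM, and the glutathione transferase gene GSTF6 from 260.1 to 1181 TPM. GSTF6 has a close copy that can share its reads. The 10 largest losses were genes of the light-harvesting antenna, the photosystems and Rubisco. LHCB3, an antenna protein of photosystem II, went from 8813 to 3418 TPM and LHCA1, of photosystem I, from 9102 to 4912 TPM. All 21 antenna genes fell (median −1.27), where 38.8% of all genes fell, as did all 40 photosystem and electron transport genes (median −1.01).

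**Figure D1:**
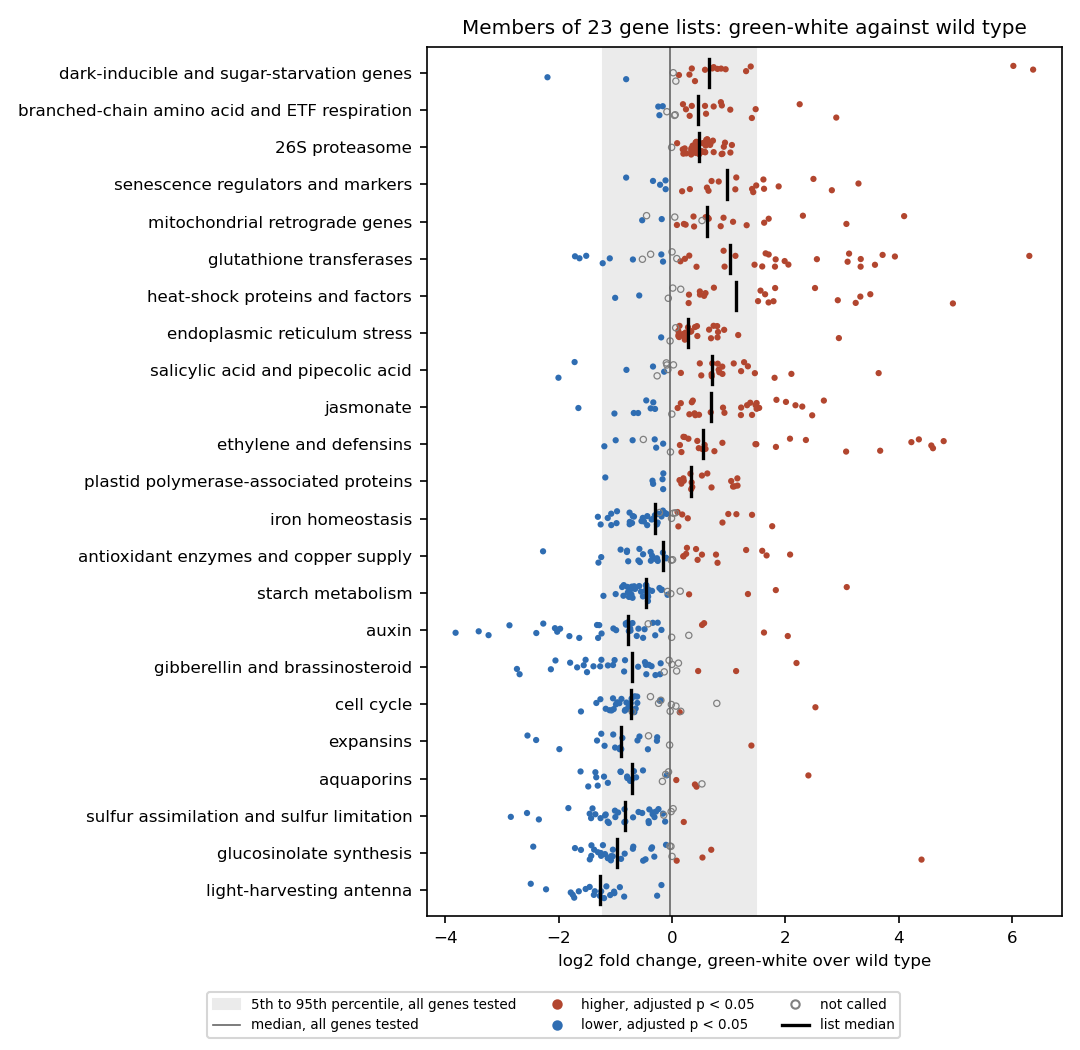
Log2 fold change of green-white over wild-type leaves for the tested members of 23 gene lists. Each point is a gene, filled red or blue where it was called higher or lower and open where it was not called; black bars are list medians, the grey band holds the middle 90% of all genes tested. Proteasome, heat-shock and jasmonate genes lie mostly to the right, and expansin, sulfur, glucosinolate and antenna genes mostly to the left.

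Genes that plant cells switch on when sugar runs short were the first group examined. Of 18 dark-inducible and sugar-starvation genes, 14 rose and 2 fell, with a median of 0.65, where 34.1% of all genes rose. ASN1 (AT3G47340), the asparagine synthetase gene used as a marker of carbon starvation, measured 240.4, 247 and 242 CPM in the wild-type libraries and 387, 406 and 401 CPM in the green-white libraries. The libraries did not overlap, and it rose by 0.71 ± 0.028 (adjusted p = 2.1e-20). In green melinoe leaves ASN1 stood at 65.6, 69.1 and 67.9 CPM and in white leaves at 858, 843 and 839 CPM, below and above wild type. BGAL4, a β-galactosidase gene with a close copy, rose by 1.39, and TPS11, a trehalose phosphate synthase-like gene, by 1.31, from 269 to 666 CPM. Not every marker moved: DIN10, a raffinose synthase-like gene, was at 1202 ± 17.6 CPM in wild type, against 1221 ± 14.3 CPM for the green-white leaves (log2 difference 0.022, adjusted p = 0.45). TPPB, a trehalose phosphate phosphatase gene at low levels, fell by 2.20.

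Breakdown of amino acids as respiratory fuel showed the same direction. Branched-chain amino acids are degraded in mitochondria and feed electrons to the chain through flavoproteins, the electron-transfer flavoprotein and its ubiquinone oxidoreductase. Of 20 genes of this route and of proline, lysine and tyrosine breakdown, 14 rose and 3 fell (median 0.47). BCAT2 (AT1G10070), a branched-chain aminotransferase gene with some shared reads, measured 7.32, 7.0 and 6.94 CPM in the wild-type libraries and 50.1, 53.1 and 55.6 CPM in the green-white libraries, a log2 fold change of 2.90 ± 0.060 (adjusted p = 6.7e-28). ERD5 (AT3G30775), proline dehydrogenase, a flavoenzyme, measured 42.0, 42.1 and 40.8 CPM in the wild-type libraries and 199, 195 and 202 CPM in the green-white libraries. Its wild-type and green-white libraries did not overlap, and it rose by 2.25 ± 0.036. LKR, the first enzyme of lysine breakdown, rose by 1.41 and IVD, isovaleryl-CoA dehydrogenase, another flavoenzyme, by 1.03. The carriers at the end of the route changed little: ETFBETA rose by 0.31 and the oxidoreductase ETFQO by 0.25.

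In peroxisomes, 12 of 19 genes of fatty acid oxidation and the glyoxylate cycle rose and 4 fell. ACX1, an acyl-CoA oxidase and flavoprotein, went from 112 to 272 CPM (log2 fold change 1.28 ± 0.033), and LACS7, which activates fatty acids, rose by 1.09. The glyoxylate cycle genes stood at very low levels: MLS (AT5G03860), malate synthase, measured 2.51, 2.11 and 2.11 CPM in the wild-type libraries and 0.244, 0.283 and 0.209 CPM in the green-white libraries. It fell by 3.17 ± 0.27 (adjusted p = 3.6e-12), and ICL, isocitrate lyase, was at 0.261 ± 0.0637 CPM in wild type, against 0.0584 ± 0.0534 CPM in green-white leaves.

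Protein breakdown genes moved nearly as a block, by small amounts. Of 43 subunit genes of the 26S proteasome, 42 rose, 0 fell, and the median was 0.47. RPN11 (AT5G23540), the deubiquitinase of the lid, measured 71.1, 71.3 and 71.8 CPM in the wild-type libraries and 146, 144 and 147 CPM in the green-white libraries, a log2 fold change of 1.03 ± 0.034 (adjusted p = 8.8e-23). RPT6A was the member not called, at −0.0060 (adjusted p = 0.9), and it has a close copy. For autophagy genes the counts turned on the scaling: 12 of 32 rose and 6 fell with TMM (median 0.086), a share of risers near the 34.1% of all genes. With library totals alone 28 rose and 0 fell, and with upper-quartile factors 12 and 11.

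Among 22 senescence regulators and markers, 17 rose and 5 fell (median 0.97). The transcription factor gene WRKY75 (AT5G13080), a promoter of leaf senescence, measured 2.34, 2.48 and 2.39 CPM in the wild-type libraries and 21.7, 24.4 and 24.8 CPM in the green-white libraries, and rose by 3.29 ± 0.086 (adjusted p = 2.5e-25). NAC019 rose by 2.82, from 33.7 to 238 CPM, and ORE1, a central NAC regulator of age-dependent senescence, by 1.41. SAG12 (AT5G45890), the protease gene used as a late senescence marker, was low at 0.740, 0.580 and 0.661 CPM in the wild-type libraries and 1.18, 0.813 and 1.05 CPM in the green-white libraries (log2 difference 0.62, adjusted p = 0.03). That call was lost when green-white library A or C, or wild-type library B, was left out. WRKY54, which acts to delay senescence, fell by 0.81.

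**Figure D2:**
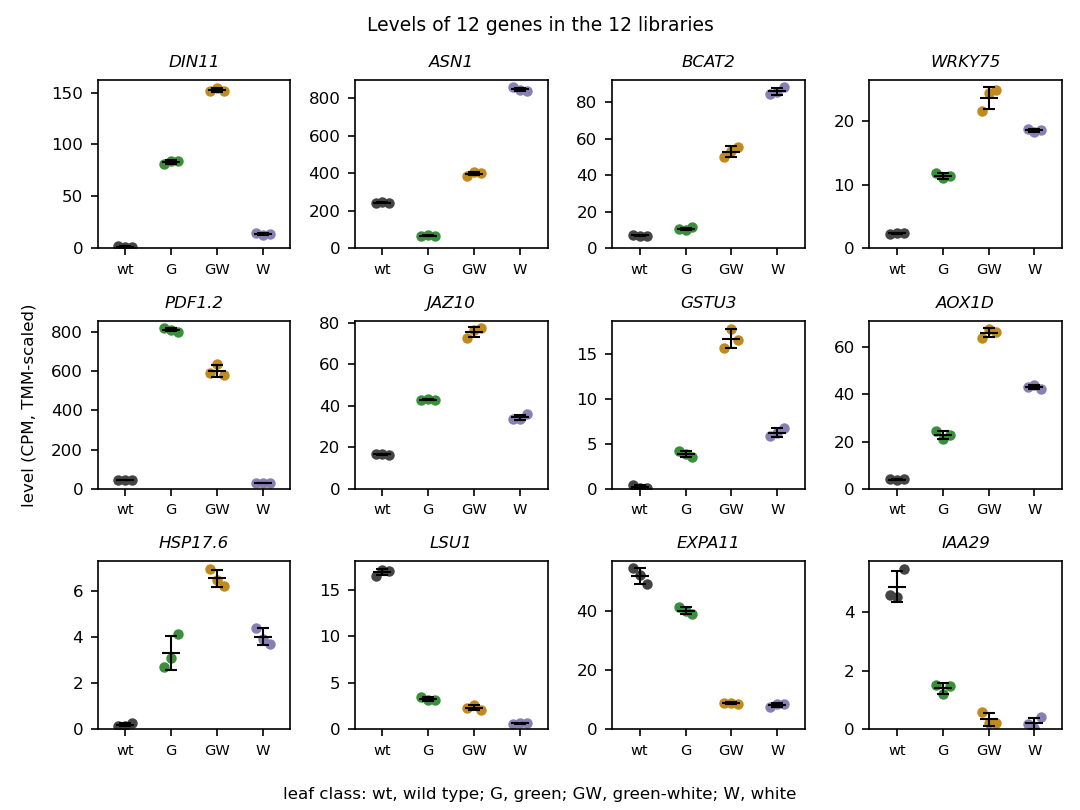
Level of 12 genes in each of the 12 libraries, in CPM scaled by TMM factors; each panel has its own vertical axis starting at 0, points are libraries, and bars show the mean ± SD of 3. The genes shown were picked from those called, so the gap between green-white and wild-type libraries in each panel is not a separate result. DIN11, JAZ10, GSTU3, AOX1D and HSP17.6 were highest in green-white leaves.

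Single genes of sucrose cleavage and hexose import rose by large amounts. CWINV1 (AT3G13790), the cell-wall invertase that splits sucrose outside cells, measured 33.6, 33.5 and 32.6 CPM in the wild-type libraries and 129, 126 and 129 CPM in the green-white libraries. The groups did not overlap (log2 fold change 1.94 ± 0.036, adjusted p = 4.2e-29), and the level was above the 52.1 ± 0.650 CPM in green and 65.9 ± 0.719 CPM in white leaves. SUS1, a sucrose synthase gene that is also hypoxia-inducible, rose by 1.53, and STP13, a hexose importer of the plasma membrane, by 1.66, from 189.7 to 598 CPM. SUC7, a sucrose carrier-like gene, was all but absent from wild type (0.0137 ± 0.0238 CPM) and reached 16.0 ± 0.602 CPM in green-white leaves. SWEET11 and SWEET12, which release sucrose for phloem loading, fell, with log2 fold changes of −0.58 and −0.49, and SUC2, the carrier that loads the phloem, fell by 0.39. Over the 31 sugar transporter genes, 12 rose and 12 fell, shares near those of all genes (34.1% and 38.8%), against 20 and 8 with library totals alone.

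Starch genes mostly fell, 32 of 39 against 4 that rose (median −0.46). The exceptions were large. GPT2 (AT1G61800), the glucose 6-phosphate translocator of plastids that is induced by sugar, measured 3.37, 2.94 and 3.59 CPM in the wild-type libraries and 28.3, 27.0 and 28.9 CPM in the green-white libraries, a log2 fold change of 3.08 ± 0.079 (adjusted p = 1.3e-25). BAM1, a stress-induced β-amylase gene, rose by 1.83, from 154 to 550.3 CPM, and AMY1, a secreted α-amylase gene, by 1.34. BAM6, ISA2 and SBE2.2, for a β-amylase, a debranching enzyme and a branching enzyme, fell, with log2 fold changes of −1.21, −0.99 and −0.88. Reads of BAM6 can be shared with a similar gene.

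Nitrogen genes were divided, with 16 of 34 higher and 13 lower, against 21 and 8 with library totals alone. GDH2 (AT5G07440), glutamate dehydrogenase, which releases ammonium from glutamate, measured 26.9, 26.5 and 24.4 CPM in the wild-type libraries and 189, 188 and 184 CPM in the green-white libraries, a log2 fold change of 2.85 ± 0.040 (adjusted p = 4.5e-32). The nitrate transporter genes NRT1.8, which removes nitrate from the xylem, and NRT2.6 rose by 4.26 and 4.12, from 0.702 ± 0.0435 and 1.65 ± 0.594 CPM in wild type. GS2, the plastid glutamine synthetase that recaptures photorespiratory ammonium, fell from 1676 to 897 CPM (−0.90), and NRT1.1, the dual-affinity nitrate transporter and sensor, fell by 1.31. Of 25 amino acid carriers 12 fell and 8 rose, with a median (−0.16) that turns to 0.095 with library totals alone. AAP2, which moves amino acids from xylem to phloem, fell by 1.63, and LHT7 rose by 1.95.

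Among superoxide dismutase genes FSD1, for an iron form, fell, while CSD1 and CSD2, for copper-zinc forms, rose. Plants hold CSD1 in the cytosol and CSD2 (AT2G28190) in the plastid, loaded by the chaperone CCS (AT1G12520), and FSD1 in the plastid. Values of other forms are not given here. When copper is plentiful the copper forms are favoured and FSD1 is repressed. FSD1 measured 499, 540.1 and 529 CPM in the wild-type libraries and 108, 110.5 and 105 CPM in the green-white libraries. It fell by 2.28 ± 0.035 on the log2 scale (adjusted p = 4.7e-31), close to the 96.8 ± 3.77 CPM of green leaves and above the 10.4 ± 0.622 CPM of white leaves. CSD2 measured 74.3, 81.4 and 78.4 CPM in the wild-type libraries and 325, 329 and 339.5 CPM in the green-white libraries, and CCS 33.3, 32.7 and 34.1 CPM in the wild-type libraries and 108, 105 and 106 CPM in the green-white libraries. Both groups of libraries were apart in each, with log2 fold changes of 2.08 ± 0.036 and 1.67 ± 0.038, and CSD1 rose by 1.59 ± 0.042. COPT2, a copper importer that is induced when copper is short, fell by 1.25, while the regulator SPL7 of the copper-deficiency response rose by only 0.25. Over the 35 antioxidant and copper genes, 13 rose and 20 fell, and their median of −0.16 turns to 0.092 with library totals alone. CAT3, a catalase gene of the evening, fell from 4743 to 1929 CPM (−1.30).

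The ferritin genes FER1 (AT5G01600), FER3 and FER4 rose, while BHLH39 (AT3G56980) and IMA1, which promote iron uptake, fell. FER1, a plastid ferritin that stores iron, measured 30.3, 33.2 and 33.5 CPM in the wild-type libraries and 109, 109.7 and 112 CPM in the green-white libraries, a log2 fold change of 1.77 ± 0.041 (adjusted p = 9.1e-27). FER3 and FER4 rose by 1.41 and 0.89. Among regulators, BHLH39 measured 6.75, 7.95 and 7.93 CPM in the wild-type libraries and 3.24, 4.00 and 3.52 CPM in the green-white libraries (−1.07 ± 0.10), and IMA1, a peptide that signals iron shortage, fell by 0.75. NAS3 and NAS4, which make the iron chelator nicotianamine, fell, with log2 fold changes of −1.31 and −1.07. In green melinoe leaves the order was reversed, with FER1 at 15.6 ± 0.912 CPM and BHLH39 at 20.5 ± 0.845 CPM. The log2 differences of green-white from green leaves were 2.82 ± 0.046 in FER1 (adjusted p = 8.8e-30) and −2.52 ± 0.084 in BHLH39 (adjusted p = 5.7e-22). Of 41 iron genes, 9 rose and 28 fell (median −0.30), against 14 and 17 (median −0.051) with library totals alone.

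**Figure D3:**
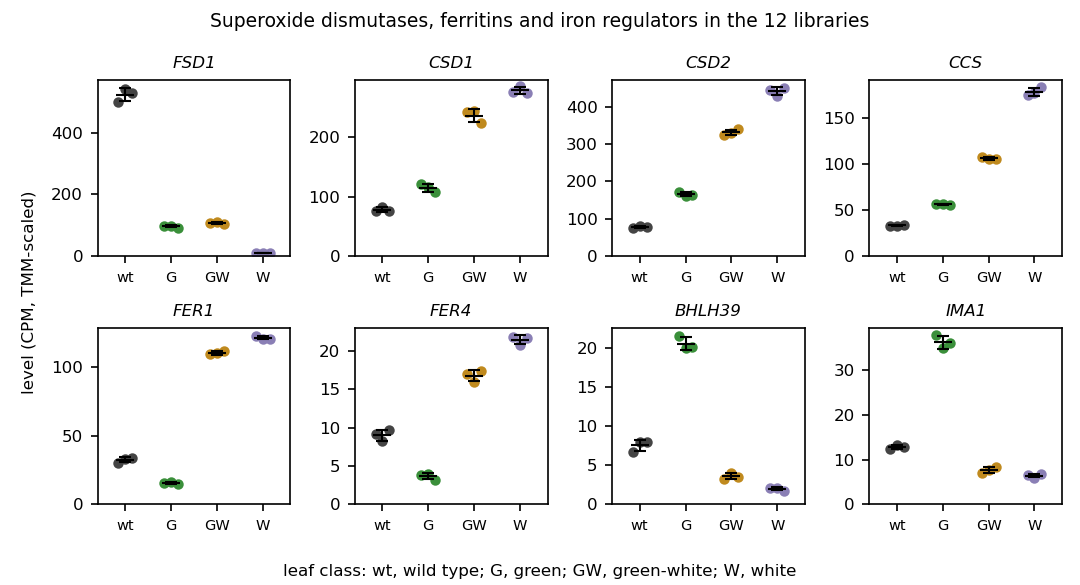
Level of 4 superoxide dismutase and copper chaperone genes and 4 iron genes in each of the 12 libraries, in CPM scaled by TMM factors; each panel has its own vertical axis starting at 0, points are libraries and bars the mean ± SD of 3. FER1 and FER4 lie above wild type in green-white and white leaves and below it in green leaves, and BHLH39 and IMA1 show the reverse.

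Mitochondria signal respiratory trouble to the nucleus, and the factors NAC013 and NAC017 carry the signal by binding a motif called MDM. It was sought here only in the form with the letters CTTGNNNNNCAAG, and sites that differ from these letters were not counted. Of 22 genes of this response, 17 rose and 2 fell (median 0.61). The search covered both strands of the 300 bases before the annotated start of each tested gene. It used the RefSeq TAIR10.1 genome, whose chromosome lengths equal those of TAIR10. The motif in this form was present in 3 of 22 genes of the response, UPOX (AT2G21640), NDB2 (AT4G05020) and NDA1 (AT1G07180). In all, 128 of 19423 genes (0.659%) held it. Their windows are shown because genes that hold the same letters differed in expression. Capitals mark the motif, which begins at −51 from the start of UPOX, −79 of NDB2 and −70 of NDA1, and the sequences run 5′ to 3′ on the gene's strand. They lie at chr2:9254078-9254377 (plus strand) for UPOX, chr4:2572127-2572426 (plus strand) for NDB2 and chr1:2203804-2204103 (plus strand) for NDA1, and the annotated gene AT4G05018 reaches into the window of NDB2.
UPOX: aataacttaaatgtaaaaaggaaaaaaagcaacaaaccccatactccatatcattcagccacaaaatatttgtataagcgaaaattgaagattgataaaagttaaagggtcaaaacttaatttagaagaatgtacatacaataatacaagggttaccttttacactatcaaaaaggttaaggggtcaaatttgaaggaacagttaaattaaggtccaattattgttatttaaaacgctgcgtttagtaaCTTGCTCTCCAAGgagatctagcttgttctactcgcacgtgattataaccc
NDB2: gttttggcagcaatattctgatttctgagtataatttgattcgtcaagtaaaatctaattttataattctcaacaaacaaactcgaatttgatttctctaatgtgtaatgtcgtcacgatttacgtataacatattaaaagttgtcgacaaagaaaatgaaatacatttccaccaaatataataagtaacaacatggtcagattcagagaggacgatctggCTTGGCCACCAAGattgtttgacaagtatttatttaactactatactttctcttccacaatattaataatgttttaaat
NDA1: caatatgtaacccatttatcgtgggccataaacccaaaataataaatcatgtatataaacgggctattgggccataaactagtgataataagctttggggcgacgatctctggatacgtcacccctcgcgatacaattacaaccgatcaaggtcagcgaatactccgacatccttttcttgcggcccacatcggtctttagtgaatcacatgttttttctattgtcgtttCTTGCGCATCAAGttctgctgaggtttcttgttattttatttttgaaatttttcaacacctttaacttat

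UPOX, a small mitochondrial protein induced by oxidative stress, measured 3.99, 4.39 and 4.00 CPM in the wild-type libraries and 21.4, 21.2 and 18.9 CPM in the green-white libraries, and rose by 2.31 ± 0.089 (adjusted p = 7e-21). NDB2, an alternative NADH dehydrogenase on the outer face of the inner membrane and a flavoprotein, measured 21.6, 21.5 and 21.2 CPM in the wild-type libraries and 52.7, 54.3 and 53.1 CPM in the green-white libraries (1.32 ± 0.043). NDA1, an alternative dehydrogenase of the inner face, was at 71.2, 71.4 and 70.1 CPM in the wild-type libraries and 61.9, 63.4 and 62.3 CPM in the green-white libraries, a difference of −0.18 ± 0.037 whose sign depends on the scaling. AOX1D (AT1G32350), an alternative oxidase that bypasses the later chain complexes, did not hold the motif in the form sought in this window. AOX1D measured 3.99, 3.56 and 4.00 CPM in the wild-type libraries and 63.9, 67.7 and 66.5 CPM in the green-white libraries. It rose by 4.10 ± 0.066 (adjusted p = 1.2e-30), above its level in green and in white leaves. AOX1A, the main stress-induced oxidase, rose by 1.08, and UGT74E2, an auxin glucosyltransferase of this response, by 3.08. The regulator NAC013 rose by 1.63 and NAC017 by 0.38.

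Detoxification and protein-folding genes were raised widely. Of 36 glutathione transferase genes, 24 rose and 8 fell (median 1.02). GSTU3 (AT2G29470) measured 0.411, 0.0828 and 0.124 CPM in the wild-type libraries and 15.7, 17.9 and 16.6 CPM in the green-white libraries, a log2 fold change of 6.31 ± 0.18 (adjusted p = 1.9e-24), and GSTU8, GSTU24 and GSTU4 rose by 3.72, 3.58 and 3.33. GSTU20 and GSTF11, whose products are tied to glucosinolate synthesis, fell, with log2 fold changes of −1.63 and −1.71. GSTF11 shares reads with a similar gene. Of 24 heat-shock genes, 19 rose and 2 fell (median 1.13). HSFA2, a heat-shock factor that sustains the response, went from 1.64 to 12.5 CPM (2.93 ± 0.12), and HSP70 from 16.9 to 97.6 CPM (2.52 ± 0.045). HSP17.6 (AT5G12030), a small heat-shock protein, was at 0.165, 0.166 and 0.289 CPM in the wild-type libraries and 6.97, 6.47 and 6.24 CPM in the green-white libraries and rose by 4.96. In the endoplasmic reticulum, 26 of 29 folding and stress genes rose and 1 fell, with a smaller median of 0.28. With upper-quartile factors 18 rose and 2 fell. The sensor and regulator genes IRE1A, BZIP28 and BZIP60 rose by 0.73, 0.80 and 0.80, and BIP3, the stress-specific chaperone gene, by 0.92.

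Jasmonate is made from plastid lipids by lipoxygenases (LOX), allene oxide enzymes (AOS, AOC) and OPR3, is activated by JAR1, and acts by removing JAZ repressors, whose genes are also its targets. Of 35 genes of this pathway, 26 rose and 8 fell (median 0.68). Among synthesis genes, LOX3 (AT1G17420) measured 199, 185 and 188 CPM in the wild-type libraries and 741, 774 and 793 CPM in the green-white libraries (2.01 ± 0.032, adjusted p = 8.8e-31), and OPR3 rose by 1.41. LOX2, which had the highest authors' mean TPM of the 4 lipoxygenase genes listed, fell by 0.38. Among repressors, JAZ10 (AT5G13220) measured 16.6, 17.0 and 16.4 CPM in the wild-type libraries and 72.8, 76.6 and 77.2 CPM in the green-white libraries, a log2 fold change of 2.18 ± 0.046 (adjusted p = 8.5e-28). CYP94B3 and CYP94B1, which inactivate the hormone by oxidation, rose by 2.48 and 2.30. The activator MYC2 rose by 0.16 and its relative MYC4 fell by 1.65. Not all targets rose: VSP2, a vegetative storage protein and classical jasmonate marker, fell from 500.0 to 313 CPM (−0.67).

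The plant defensins, small antifungal peptides induced by jasmonate and ethylene together through ORA59 (AT1G06160), rose. Promoters are shown for PDF1.2 (AT5G44420) and PDF1.2B because both held the GCC box (letters AGCCGCC, either strand), bound by ethylene response factors. The box was found in 2 of 32 ethylene and defensin genes and in 141 of 19423 genes in all (0.726%), again in the 300 bases before the start in RefSeq TAIR10.1. Capitals mark the box, which begins at −223 from the start of PDF1.2 and −144 of PDF1.2B. The windows are chr5:17907639-17907938 (minus strand) for PDF1.2 and chr2:11088823-11089122 (plus strand) for PDF1.2B.
PDF1.2: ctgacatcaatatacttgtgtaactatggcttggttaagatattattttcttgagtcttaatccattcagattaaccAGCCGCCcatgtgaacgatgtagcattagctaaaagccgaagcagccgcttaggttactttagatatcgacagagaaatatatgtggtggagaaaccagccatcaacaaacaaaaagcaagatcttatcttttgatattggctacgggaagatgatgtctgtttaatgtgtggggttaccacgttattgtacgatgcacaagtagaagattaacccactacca
PDF1.2B: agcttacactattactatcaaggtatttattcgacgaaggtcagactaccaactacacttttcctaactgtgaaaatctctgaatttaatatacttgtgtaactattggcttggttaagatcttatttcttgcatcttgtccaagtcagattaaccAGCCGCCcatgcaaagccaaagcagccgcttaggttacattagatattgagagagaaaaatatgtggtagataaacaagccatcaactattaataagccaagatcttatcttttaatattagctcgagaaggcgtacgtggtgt

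PDF1.2 measured 47.6, 47.1 and 46.4 CPM in the wild-type libraries and 588, 635 and 579.6 CPM in the green-white libraries, a log2 fold change of 3.67 ± 0.037 (adjusted p = 1.2e-35). It was at 817, 811 and 801 CPM in green leaves but at 30.5, 31.1 and 29.1 CPM in white leaves, so only the green and green-white classes lay above wild type. PDF1.2B rose by 4.23, PDF1.2C by 4.36 and PDF1.3 by 4.80. These coding sequences are nearly identical and their counts hold divided reads, so the share of each is uncertain. The regulator ORA59 measured 8.43, 8.90 and 6.94 CPM in the wild-type libraries and 21.8, 24.0 and 21.7 CPM in the green-white libraries (1.47 ± 0.073), with 29.9 ± 1.24 CPM in green and 6.17 ± 0.276 CPM in white leaves. ACS2, an ethylene synthesis enzyme, went from 0.605 to 14.9 CPM (4.61). ERF5 and ERF6, fast stress-response factors, fell, with log2 fold changes of −1.19 and −0.99. Of the 32 genes, 24 rose and 6 fell (median 0.56).

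Salicylic acid and pipecolic acid genes rose in 19 of 29 cases and fell in 5 (median 0.70). FMO1 (AT1G19250), a flavin monooxygenase that makes N-hydroxypipecolic acid, measured 0.740, 0.538 and 0.619 CPM in the wild-type libraries and 8.22, 7.92 and 7.81 CPM in the green-white libraries, and rose by 3.65 ± 0.14 (adjusted p = 1.1e-20). ALD1, earlier in the same route, rose by 2.11, and ICS1, the main salicylic acid synthesis gene, by 1.09. The secreted glucanase PR2 rose by 1.46, whereas PR1 (AT2G14610), the usual marker, was at 122, 125 and 125 CPM in the wild-type libraries and 128, 128 and 124 CPM in the green-white libraries, which overlapped (adjusted p = 0.51). Abscisic acid, cold and drought genes were divided, 21 higher and 12 lower of 39. The counts were 18 and 16 with upper-quartile factors and 25 and 11 with library totals alone. HAI1, a phosphatase induced by the hormone, rose by 3.50 and the dehydration marker RD29A by 1.72, while the cold regulator CBF3, which has near-identical neighbours, fell by 1.63.

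Most members of several growth-related lists fell, genes for repressors and inhibitors among them, so the counts do not give a direction of growth. Of 40 auxin genes, 33 fell and 4 rose (median −0.77). IAA29 (AT4G32280), an auxin- and shade-induced repressor gene, measured 4.57, 4.51 and 5.45 CPM in the wild-type libraries and 0.592, 0.212 and 0.209 CPM in the green-white libraries, a log2 fold change of −3.82 ± 0.25 (adjusted p = 8.8e-15). SHY2 fell by 2.03, the efflux carrier gene PIN7 fell by 1.24 and the importer AUX1 fell by 0.99. GH3.3 and GH3.6, which conjugate auxin to amino acids and so lower the free hormone, rose by 2.04 and 1.62. GH3.3 measured 16.8, 17.5 and 16.3 CPM in green-white leaves, 1.46 ± 0.094 above green and 1.26 ± 0.088 above white leaves on the log2 scale. Gibberellin and brassinosteroid genes fell in 26 of 34 cases and rose in 3 (median −0.71). DWF4, the rate-limiting step of brassinosteroid synthesis, went from 21.4 to 5.15 CPM (−2.06 ± 0.073), GASA6 fell by 1.80, and GA2OX6, which inactivates gibberellin, rose by 2.20.

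Of the 20 expansin genes, which loosen cell walls, 17 fell and 1 rose (median −0.90). EXPA11 measured 54.3, 52.0 and 49.0 CPM in the wild-type libraries and 9.02, 8.98 and 8.47 CPM in the green-white libraries (−2.55 ± 0.058, adjusted p = 6.4e-27). The green leaves stood at 41.4, 39.9 and 38.9 CPM and the white leaves at 7.49, 8.63 and 8.68 CPM, so the green-white libraries lay with white and away from green. EXPA10 was the riser, by 1.40. Xyloglucan endotransglucosylases were divided, 8 higher and 15 lower of 24, against 10 and 11 with library totals alone. Among them XTH31 stood at −2.39 and XTH18 at 1.09. Cell cycle genes fell in 27 of 38 cases and rose in 2 (median −0.72), from levels mostly under 10 CPM. The cyclin-dependent kinase inhibitor gene KRP2 fell by 1.33, and the replication helicase gene MCM7 fell by 0.99. Of 25 aquaporin genes 17 fell and 4 rose (median −0.71), among them DELTA-TIP of the vacuole, from 1047 to 376 CPM (−1.48).

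Sulfur genes moved almost wholly one way. Plants raise the LSU and SDI genes when sulfur is short, and the transcription factor SLIM1 drives that response. Of 36 genes, 32 fell and 1 rose (median −0.83), and the riser was SLIM1 (0.21). LSU1 (AT3G49580) measured 16.5, 17.1 and 17.1 CPM in the wild-type libraries and 2.30, 2.62 and 2.13 CPM in the green-white libraries, a log2 fold change of −2.85 ± 0.089 (adjusted p = 3.1e-23). LSU3 and SDI1 fell, with log2 fold changes of −2.56 and −2.35. In the assimilation route itself APR2, the adenosine phosphosulfate reductase that sets its flux, went from 213 to 94.7 CPM (−1.17 ± 0.037). The sulfate transporter SULTR2;1 fell by 1.40.

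Glucosinolates, the sulfur-rich defence compounds of Brassicaceae, come in a methionine-derived (aliphatic) and a tryptophan-derived (indolic) series, under MYB28 and MYB29 (AT5G07690) or MYB34, MYB51 and MYB122 respectively. Of 34 synthesis genes, 27 fell and 4 rose (median −0.97). MYB29 measured 22.1, 21.2 and 20.7 CPM in the wild-type libraries and 8.01, 8.31 and 7.50 CPM in the green-white libraries (−1.43 ± 0.071, adjusted p = 5.9e-18), and MYB28 fell by 1.22. The chain-elongation gene MAM3 fell by 2.45 and FMOGS-OX3, a flavin monooxygenase of side-chain oxidation, fell by 1.61. On the indolic side CYP79B2 rose by 0.69 and MYB122 went from 0.0550 ± 0.0477 to 1.26 ± 0.274 CPM, while MYB34 fell by 0.68. The genes of endoplasmic reticulum bodies and myrosinases, which hold and cleave such compounds, fell in 12 of 18 cases and rose in 5. NAI2, needed to form the bodies, went from 26 to 4.67 CPM (−2.48), and the lectin genes PBP1, which has similar copies, and JAL23 fell, with log2 fold changes of −3.03 and −1.79. NSP5, which steers glucosinolate breakdown toward nitriles, rose by 1.21.

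Flavin-binding blue-light receptors were examined because they need FMN or FAD. PHOT1 (AT3G45780), a phototropin with FMN, measured 420.5, 408 and 431 CPM in the wild-type libraries and 243, 254 and 249 CPM in the green-white libraries, and fell by 0.76 ± 0.032 (adjusted p = 9e-20). PHOT2 and the cryptochrome CRY1, which carries FAD, fell, with log2 fold changes of −0.55 and −0.54, and the phototropin partners NPH3 and RPT2 fell, with log2 fold changes of −1.25 and −0.88. FKF1, an FMN-binding F-box protein of the photoperiod pathway, rose by 0.49. In all, 7 of 13 receptors and partners fell and 3 rose, with a median (−0.092) that turns to 0.16 with library totals alone. Of 26 light signalling factors 17 fell and 4 rose, and the median of −0.23 likewise turns to 0.020. PIF4, a growth-promoting phytochrome-interacting factor, went from 219 to 108 CPM (−1.02). HFR1, also on the list of light signalling factors, fell further, from 12.15 to 1.26 CPM (−3.26 ± 0.125). CIB1, listed with the receptors and partners, went from 8.19 to 0.961 CPM (−3.09 ± 0.257). The level of CIB1 is uncertain, since green-white library A was at 0, its span overlaps another gene and its counts hold fractions. In the flavin route itself, 3 of 13 genes rose and 7 fell with TMM, but 7 rose and 1 fell with library totals alone. Of the entry enzymes of riboflavin synthesis, RIBA1 rose by 0.61 ± 0.035, RIBA3 fell by 0.27 and RIBA2 was not called (0.050). Along the route PYRR, a reductase, rose by 0.13, while PYRD, a deaminase, PYRP2, a phosphatase, COS1, lumazine synthase, and RIBS, riboflavin synthase, fell, with log2 fold changes of −0.14, −0.12, −0.20 and −0.26. FHY1, a plastid FMN hydrolase, went from 47.8 to 31.0 CPM and had the largest decrease (−0.62 ± 0.043, adjusted p = 3.1e-14). Of the FAD synthetase genes RIBF1 rose by 0.86 ± 0.068 and RIBF2 was not called (−0.053), and NUDX23, which cleaves FAD, fell by 0.23. The smaller of these changes were not stable: with library totals alone PYRD, PYRP2, COS1 and NUDX23 turned positive and RIBA3 and RIBS lost their call. PYRR lost its call with DESeq2, with upper-quartile factors and without any 1 of the green-white libraries or wild-type library A. PYRD lost its call with DESeq2, with only the compared groups and without green-white library A or wild-type library A or C, and without wild-type library B PYRP2 lost its call and RIBA2 became called.

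The time of harvest is not given, so in clock genes a shift in phase and a change in level look alike. TOC1 (AT5G61380), an evening component, measured 67.8, 65.6 and 65.6 CPM in the wild-type libraries and 163, 155 and 162 CPM in the green-white libraries (1.27 ± 0.036, adjusted p = 2.4e-24), and CHE, a TCP-family partner of the clock, fell by 1.11. CCA1 (AT2G46830), the morning component, was at 68.1, 69.8 and 67.5 CPM in the wild-type libraries and 66.9, 65.4 and 68.2 CPM in the green-white libraries, a difference of −0.035 (adjusted p = 0.39). Its morning partner LHY fell by 0.30 ± 0.047 (adjusted p = 9.9e-07), a call lost with library totals alone, and PRR9, a morning pseudo-response regulator, fell by 0.73 ± 0.055 (adjusted p = 2.7e-13). Of 29 clock genes 9 rose and 15 fell, against 16 and 7 with library totals alone, so the majority direction depended on the scaling. In flowering genes (8 higher and 16 lower of 32, against 15 and 11 with library totals alone), FT, the mobile flowering signal, fell by 1.50.

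Nuclear genes for the plastid transcription machinery were counted apart from those of photosynthesis. The plastid-encoded RNA polymerase works with nuclear-encoded associated proteins, and 16 of 22 such genes rose while 6 fell (median 0.33). Their summed level, of which PTAC16 held the largest part, was 1964 to 1986 CPM in the wild-type libraries and 1528 to 1551 CPM in the green-white libraries. FLN1 (AT3G54090), a fructokinase-like subunit, measured 35.4, 33.7 and 33.5 CPM in the wild-type libraries and 75.7, 75.1 and 77.6 CPM in the green-white libraries, a log2 fold change of 1.15 ± 0.043 (adjusted p = 2.4e-21), and PRDA1 rose by 1.16. PTAC16, an abundant thylakoid protein found with the plastid chromosome, fell from 1092 to 483 CPM (−1.18). That fall was larger than the fall of the summed level, so the other members together did not fall. Plastid chaperone and protease genes rose in 15 and fell in 12 of 32 cases, against 27 and 2 with library totals alone and 11 and 16 with upper-quartile factors. Among them were CLPD, a senescence-linked Clp ATPase, up by 1.00 and CR88, the plastid HSP90, by 0.87.

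Green-white leaves were next set against the other leaves of the mutant, which asks whether their levels lie between those of the green and the white leaves. Against green leaves 11561 genes were called (59.5%), 1245 of them (6.41%) at least 2-fold apart, and against white leaves 12480 (64.3%) and 1826 (9.40%). Called against both, 2223 genes (11.4%) lay above green and below white, and 2047 (10.5%) lay below green and above white. A further 2014 genes (10.4%) lay above both and 1806 (9.30%) below both. At 2-fold or more from both, 129 genes (0.664%) lay above both and 22 (0.113%) below both. Both comparisons use the same 3 green-white libraries. With library totals alone, 80.0% of the genes called against green leaves were higher in green-white leaves, against 49.7% with TMM.

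The lists fell into different classes. Of 21 antenna genes 20 lay below green and above white, as did 27 of 34 glucosinolate genes. The opposite order, above green and below white, held for 12 of 18 sugar-starvation genes, 14 of 20 amino acid breakdown genes and 13 of 22 plastid polymerase genes. Several defence and stress lists had many members above both, where 10.4% of all genes lay: 19 of 35 jasmonate genes, 13 of 29 salicylic and pipecolic acid genes, 14 of 36 glutathione transferases, 12 of 29 endoplasmic reticulum stress genes and 11 of 24 heat-shock genes. In other defence and stress lists fewer members lay above both: 6 of 32 ethylene and defensin genes and 5 of 22 mitochondrial retrograde genes, shares still above that of all genes. The counts were 2 of 35 for antioxidant and copper genes and 0 of 15 for hypoxia genes. High shares were not particular to defence and stress. Above both also lay 7 of 12 xylem and secondary wall markers, 7 of 22 senescence genes and 7 of 24 xyloglucan endotransglucosylases. So did 5 of 18 genes of endoplasmic reticulum bodies and myrosinases and 9 of 34 nitrogen genes. Of 39 abscisic acid, cold and drought genes 7 lay above both and 7 below both. JAZ10, for example, stood at 42.9, 43.1 and 42.6 CPM in green, 72.8, 76.6 and 77.2 CPM in green-white and 33.7, 33.7 and 35.9 CPM in white leaves. The green-white libraries did not overlap either neighbour, with log2 differences of 0.82 ± 0.039 from green and 1.13 ± 0.039 from white. GSTU3 lay 2.11 ± 0.10 above green and 1.41 ± 0.083 above white leaves. Below both lay 6 of 13 flavin light receptors and partners and 12 of 26 light signalling factors.

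**Figure D4:**
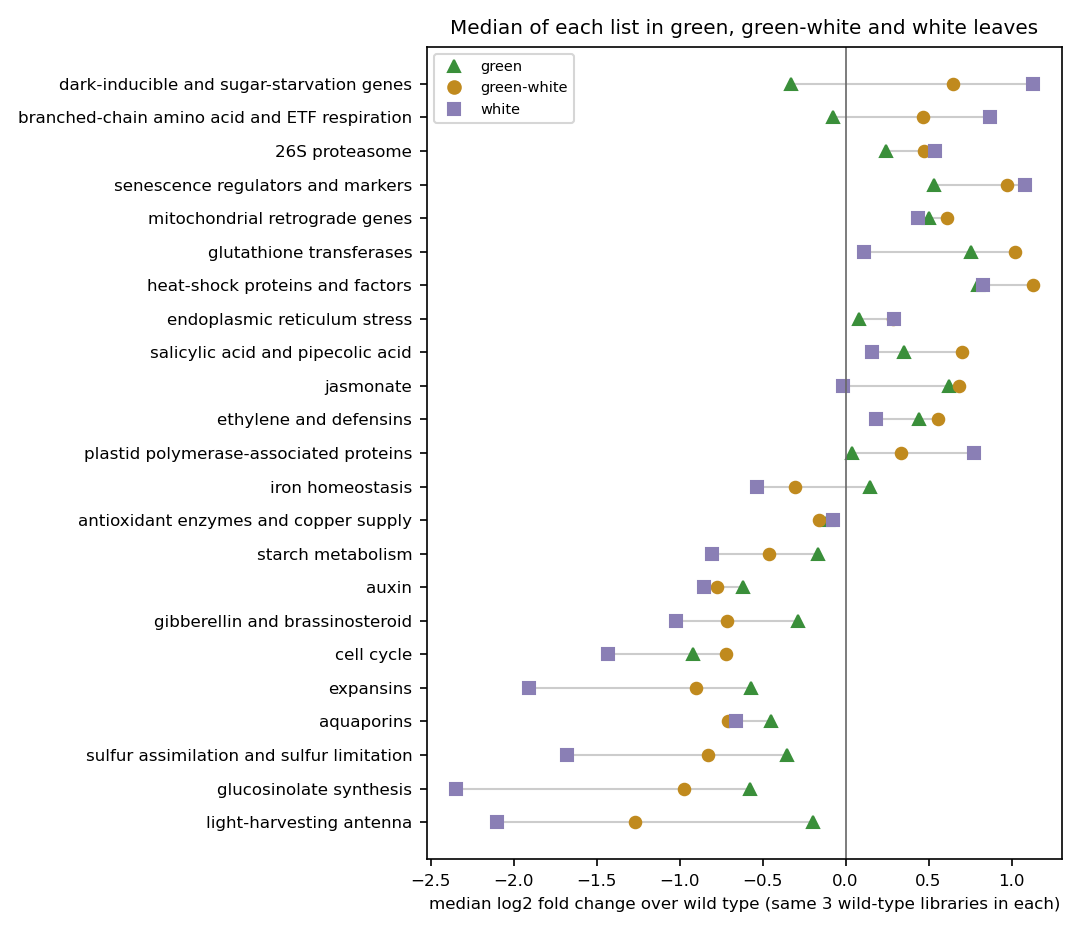
Median log2 fold change over wild type of 23 gene lists in green (triangles), green-white (circles) and white (squares) leaves; all medians use the same 3 wild-type libraries. Antenna, sulfur and glucosinolate medians lie between those of green and white leaves in green-white leaves, while the medians of jasmonate, salicylic acid, glutathione transferase and heat-shock genes are highest in green-white leaves.

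Markers of cell types moved as well. The labelled tissue showed the markers of leaf mesophyll, whose summed level per library was 39958 to 40789 CPM for wild type against 23125 to 23869 CPM for green-white leaves. All 5 mesophyll markers fell (median −1.09), as did all 5 phloem and companion cell markers (median −0.71, summed 759 to 789 CPM for wild type against 454 to 470.3 CPM for green-white leaves) and 9 of 12 tested xylem and secondary wall markers (median −0.74). The xylem cysteine protease gene XCP2 (AT1G20850) measured 14.1, 14.9 and 13.7 CPM in the wild-type libraries and 7.14, 6.61 and 5.51 CPM in the green-white libraries, against 2.84 ± 0.180 CPM in green leaves, so green-white leaves lay between green leaves and wild type. Of 6 guard cell markers 4 fell, and of 6 epidermis markers 2 rose and 4 fell. Root markers WER and COBL9 and the meristem gene WUS were at or near 0 in both groups. The summed level of the root markers was 32.5 to 33.7 CPM for wild type against 24.2 to 25.2 CPM for green-white leaves. How far a change in the cell make-up of the leaf contributes to the values above was not tested.

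Further lists are given by their counts. Phosphate starvation genes rose in 7 and fell in 13 of 24 cases, against 10 and 10 with library totals alone, with the sensor gene SPX1 at −1.32. Of 33 wax and cutin genes 9 rose and 22 fell (median −0.50). At 2-fold or more 5 rose, from low levels in wild type, and 0 fell. Of 28 anthocyanin and flavonoid genes 8 rose and 11 fell, shares near those of all genes, against 15 and 7 with library totals alone. They include PAP1, an activator of pigment synthesis (−1.13), and DFR, a pigment enzyme (0.64). Ribosome and ribosome assembly genes rose in 19 and fell in 5 of 36 cases (median 0.10), against 30 and 1 with library totals alone. With upper-quartile factors 13 rose and 8 fell (median 0.032), so this direction depended on the scaling. Hypoxia genes rose in 11 and fell in 2 of 15. Cytokinin genes were divided, 11 higher and 15 lower of 33, against 14 and 8 with library totals alone. Their share of risers with TMM was near the 34.1% of all genes.

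Some of the levels above are uncertain because of how reads can be assigned. The libraries are strand-specific by the labels' protocols, but whether counting used strand is not given in the sources used here, so reads of overlapping genes cannot be told apart. The annotated spans of AMY1, APR2, ASN1, BAM6, BCAT2, BGAL4, CBF3, CSD1, DELTA-TIP, DIN10, DTX1, ETFBETA, ETFQO, FER1, FER4, FHY1, FKF1, FMN/FHY, GASA6, GSTF11, JAZ10, LHCB3, LHT7, MCM7, MYC2, NAC013, NPH3, NRT1.8, NUDX23, PHOT2, PYK10, PYRR, RIBA3, RIBF2, RIBS, RPN11, SAG21, SHY2 and SLIM1 overlap another gene. Reads of BAM6, BCAT2, BGAL4, CBF3, DTX1, GSTF11, GSTF6, LHT7, MYC2, NIT2, PBP1, PDF1.2, PDF1.2B, PDF1.2C, PDF1.3, PRR9, RIBF2, RPT6A and SHY2 could be divided among near-identical copies, since their deposited counts hold fractions.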

How the data were processed

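Polyadenylated RNA of rosette leaves was sequenced on a DNBSEQ-G400 as strand-specific libraries, per the labels' protocols, in 3 libraries for each of 4 groups. The design text names SOAPnuke 1.5.2 and HISAT2 2.0.4 and the genome TAIR10, while Bowtie2, RSEM and DESeq2 stand in the submitters' processing notes with no role. For the annotation and the strand setting nothing is given in the sources used here. Estimated counts and TPM per gene were deposited by the authors, with their mean TPM per group and, per the file headers, log2 fold changes with p-values and q-values, from which nothing is printed here. TPM are printed as the authors' means, and 18 columns of per-library TPM were not used. Of the estimated counts 92.8% were whole within 0.001, and 3015 genes held a fraction in some library. The 3 tables were joined by gene, 9750 values missing from a table were set to 0, and counts were rounded.

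All 12 libraries were fitted together in edgeR 4.0.16 (R 4.3.3) with TMM factors, filterByExpr and 8 residual degrees of freedom, and p-values were adjusted over 19424 genes. Alternatives were RLE and upper-quartile factors, library totals alone, no filter, DESeq2 1.42.0, only the groups compared, a replicate block and leaving out each library. Libraries of a group differed by more than sampling noise, so none was taken as 1 library deposited again, which does not show that they came from separate plants. Fold changes of genes with few counts depend on edgeR's prior count.

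Named genes were the flavin genes, the 10 highest and 10 lowest fold changes with a symbol, at least 20 CPM and no overlap, the 10 largest gains and losses in the authors' mean TPM, up to 4 called members of each list in its main direction and up to 2 in the other with at least 5 CPM, and regulators or endpoint markers. TPPB, IVD, MLS, ICL, RPT6A, AMY1, GS2, CSD1, FER4, NDB2, SWEET11, SWEET12, SUC2, LOX2, LOX3, OPR3, IAA29, PIN7, AUX1, APR2, PAO, PCO2, ELIP1 and ELIP2 were named after their values were seen. Members and lists were chosen with earlier results of these data known.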

Additional observations from a re-analysis of the deposited data

Results flagged for a closer look

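Each gene below had moved in opposite directions from the same 3 wild-type libraries in green-white leaves and in green or white leaves, with both changes called. The directions are those with TMM. Other scalings were run only for comparisons of green-white leaves, so the directions of green and white leaves over wild type were not checked under them. The difference between the mutant leaf classes was itself called by edgeR's quasi-likelihood test and at least 2-fold. Values are log2 differences of green-white from the other mutant leaf class.

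Against green leaves, FER1 (2.82) and FER4 (2.18), which encode ferritins, were higher in green-white leaves, and BHLH39 (−2.52), IMA1 (−2.25) and NAS4 (−1.37), of iron uptake and chelation, were lower. ASN1, asparagine synthetase, differed by 2.56 and ERD5, proline dehydrogenase, by 3.06. PRDA1, of the plastid polymerase, differed by 1.38, and NYC1, chlorophyll b reductase, by 1.26. The growth-related genes XTH31 (−2.83) and GASA6 (−2.32) and the phosphate sensor gene SPX1 (−1.87) were lower. PSBS, of photoprotection, differed with a log2 value of −1.05 and PRR9, of the clock, with −1.09. Some changes of green leaves from wild type were small, 0.12 in PSBS, −0.22 in PRDA1 and 0.3 in NAS4. Others were larger, such as −1.85 in ASN1.

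Against white leaves, the defensin genes PDF1.2C and PDF1.2, which share reads, differed by 4.93 and 4.31, and their regulator ORA59 by 1.86. CYP94B1, of jasmonate turnover, differed by 2.99, the dehydration marker RD29A by 2.39, DFR, of pigment synthesis, by 1.37, and CYP79B2, of indolic glucosinolates, by 1.08. WRKY54 was lower than in white leaves (−1.09), where its change from wild type was small (0.28).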

How the results depend on the processing

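The number of genes called between green-white leaves and wild type (14158) ran from 12989 with DESeq2 to 14756 with library totals alone, and from 13462 to 13634 when 1 library was left out. Against green leaves (11561) it ran from 10210 with DESeq2 to 13280 with library totals alone, and from 10702 to 11008 when 1 library was left out. Against white leaves (12480) it ran from 11073 with DESeq2 to 12724, and from 11656 to 11887 when 1 library was left out. List members called (1204) ran from 1155 to 1218, and from 1173 to 1187 when 1 library was left out. These totals stayed within 1.5 times their main value, but counts by direction did not: with library totals alone the genes higher than wild type went from 6624 to 10320 and those lower from 7534 to 4436, and against green leaves those higher went from 5748 to 10627 and those lower from 5813 to 2653. Counts within lists moved by more, and the report gives several of them under both scalings. Direction depended on scaling: the share of called genes that were higher than wild type was 46.8% with TMM, 69.9% with library totals alone, 39.6% with upper-quartile factors, 49.4% with RLE factors and 49.8% with DESeq2. For list members it was 43.4% with TMM and 57.7% with library totals alone. With library totals alone the medians of the amino acid carrier, antioxidant, clock, cytokinin, flavin, flavin receptor, flowering, greening, light signalling, sugar transporter and trichome lists turned positive. With upper-quartile factors those of the nitrogen and plastid chaperone lists turned negative.

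HFR1 and CIB1 aside, 196 genes were named with a test, and 178 of them kept their call under each alternative run. Many were chosen for large called changes, so this count does not describe the other genes called. With library totals alone NDA1 turned to 0.071, CCA1 to 0.22, RPT6A to 0.25, NUDX23 to 0.027, COS1 to 0.055, PYRP2 to 0.14, PYRD to 0.11 and RIBF2 to 0.20, while RIBA2, FMN/FHY, PR1 and DIN10 became called and LHY, RIBA3 and RIBS lost their call. With upper-quartile factors CCA1 became called (−0.11), and with only the compared groups DIN10 did (0.060). PYRR lost its call with upper-quartile factors, DESeq2 and in 4 of the fits without 1 library (0.13 to 0.14), and PYRD with DESeq2, with only the compared groups and in 3 such fits (−0.13 to −0.080). PYRP2 lost its call in 1 such fit (−0.074), in which RIBA2 became called (0.12). SAG12 lost its call with upper-quartile factors (0.55) and in 3 of the fits without 1 library (0.49 to 0.60). KNAT1 lost its call with DESeq2 (1.24) and in 3 of the fits without 1 library (1.03 to 1.12). The causes were not tested.

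The column letters were not tied by the labels to a shared batch, and they did not pair the libraries. Deviations of libraries with the same letter in wild type and green-white leaves had correlations of −0.020, 0.011 and 0.013, against −0.055 to 0.045 for other pairs. With a replicate block by letter 14132 genes were called against wild type, 11523 against green and 12453 against white leaves, and no named gene changed its call. Depth limits genes at a few counts, such as SUC7 and MYB122 in wild type and ICL in green-white leaves, for which no fold is given, and 3 libraries a group with unknown sources limit what the p-values cover.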

Other observations

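Genes that protect or dismantle the photosynthetic apparatus had a pattern of their own beside the antenna. Of 10 light-harvesting-like genes, 8 fell and 2 rose. PSBS, which triggers the dissipation of excess light, went from 1611 to 843 CPM (−0.93 ± 0.032), while the early light-induced genes ELIP1 and ELIP2 stood at 1.75 ± 0.435 and 0.124 ± 0.0412 CPM in wild type and at 2.78 ± 0.241 and 1.48 ± 0.208 CPM in green-white leaves. In chlorophyll breakdown 8 of 12 genes rose and 3 fell. NYC1, chlorophyll b reductase, measured 131, 130.4 and 131 CPM in the wild-type libraries and 196, 196 and 198 CPM in the green-white libraries, and rose by 0.59 ± 0.030 (adjusted p = 1.4e-17, edgeR's quasi-likelihood test). PPH and PAO, which act after it, rose by 0.49 and 0.47. All 21 Calvin cycle genes tested fell (median −0.73), as did 22 of 27 genes of chlorophyll synthesis, whereas 8 greening regulators rose and 10 fell of 20, against 12 and 7 with library totals alone.

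Among 16 invertase and sucrose synthase genes 8 rose and 5 fell. Of the ribosome genes, RPL10C, a large-subunit protein with close relatives, went from 56.8 to 154 CPM (1.44 ± 0.039), and FIB1, a nucleolar fibrillarin, rose by 0.62. Among low-oxygen genes ADH1, alcohol dehydrogenase, went from 3.30 to 8.92 CPM (1.43 ± 0.10), while the oxygen-sensing enzyme gene PCO2 fell by 1.49, from under 1 CPM. Trichome, meristem and floral organ markers were mostly near the lower limit: 1 rose and 1 fell of 4 trichome markers tested, 3 rose and 2 fell of 7 floral markers, and KNAT1 rose as the meristem marker that could be tested (1.19). That call was lost with DESeq2 and when green-white library A or B, or wild-type library B, was left out.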
